A study of Mus musculus with 35 samples.

Results

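Leukocyte adhesion molecules and integrins are the receptors with which circulating leukocytes hold on to the vessel wall. Here 9 such genes were followed in mouse tracheal grafts: Icam1, Vcam1, Sele and Selp on the vessel side, and Selplg, Itgal, Itgb2, Itga4 and Itgb7 on the leukocyte side. The members were every probe set of the expression array annotated to exactly 1 of these genes, which gave 14 probe sets of 9 genes, out of 22626 probe sets and 12393 genes in all. Tracheas were examined in 7 groups of 5 arrays. Allo-4, Allo-14 and Allo-25 were grafts taken 4, 14 and 25 days after heterotopic transplantation into MHC-incompatible recipients (allografts). Iso-4, Iso-14 and Iso-25 were grafts of the same ages from MHC-compatible recipients (isografts), and Native-0 was trachea that had not been transplanted. Strain, sex and age of the mice are not given in the sources used here, nor whether each array came from a separate animal, so p-values measure the spread between arrays. The values are log2 intensities, on which a difference of 1 is a 2-fold difference.

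Leukocytes leave the blood in steps. Selectins on activated endothelium (E-selectin from Sele, P-selectin from Selp) catch sugar-bearing ligands such as Selplg, the P-selectin glycoprotein ligand, and slow the cell to a roll. Leukocyte integrins, each a pair of an alpha and a beta chain, then bind immunoglobulin-family ligands and stop it: Itgal with Itgb2 binds Icam1, Itga4 with Itgb1 binds Vcam1, and Itga4 with Itgb7 binds the mucosal addressin Madcam1. Inflammatory cytokines raise Icam1, Vcam1, Sele and Selp on endothelium in many tissues, and airway epithelium and stromal cells can carry Icam1 and Vcam1 too.

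The promoters of the vessel-side genes are shown because these genes are textbook targets of NF-kB, and Icam1 of interferon signalling as well. RefSeq promoter windows (mouse build GRCm38.p6, 250 bases before to 50 after the start of transcription) were at hand for 5 of the 9 members: Icam1, Sele, Selp, Itga4 and Itgb7. Capitals mark 2 motifs, searched on both strands: the NF-kB-like GGNNNTTCC, found in 18.5% of the 32851 promoters of the table, and the interferon-gamma-activated-site-like TTCNNNGAA, found in 8.3%. Icam1 lies at chr9:21015690-21015989, Sele at chr1:164047984-164048283 and Selp at chr1:164115014-164115313, all on the plus strand and printed 5′ to 3′.
Icam1: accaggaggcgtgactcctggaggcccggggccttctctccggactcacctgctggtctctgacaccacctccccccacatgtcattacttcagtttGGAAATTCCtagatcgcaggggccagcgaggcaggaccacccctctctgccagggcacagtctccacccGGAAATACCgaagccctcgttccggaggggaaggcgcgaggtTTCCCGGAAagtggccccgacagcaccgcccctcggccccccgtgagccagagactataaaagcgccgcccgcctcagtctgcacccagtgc
Sele: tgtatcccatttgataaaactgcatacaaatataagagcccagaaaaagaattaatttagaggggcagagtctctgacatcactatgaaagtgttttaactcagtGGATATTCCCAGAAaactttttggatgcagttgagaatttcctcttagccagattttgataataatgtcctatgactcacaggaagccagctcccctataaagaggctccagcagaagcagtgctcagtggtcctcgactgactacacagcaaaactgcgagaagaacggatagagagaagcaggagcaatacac
Selp: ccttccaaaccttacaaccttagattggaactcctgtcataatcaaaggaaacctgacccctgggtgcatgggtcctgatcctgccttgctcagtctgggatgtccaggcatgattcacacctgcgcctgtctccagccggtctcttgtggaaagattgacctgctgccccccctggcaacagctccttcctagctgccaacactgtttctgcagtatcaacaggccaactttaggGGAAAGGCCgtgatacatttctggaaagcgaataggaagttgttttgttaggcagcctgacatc
The Icam1 window held 2 matches of the NF-kB-like motif (GGAAATTCC and, on the other strand, GGAAATACC) and 1 of the TTCNNNGAA motif (TTCCCGGAA). In Sele the NF-kB-like GGATATTCC and TTCCCAGAA overlapped by 4 bases, and Selp held 1 NF-kB-like match on the other strand (GGAAAGGCC). Neither motif was found in the windows of Itga4 and Itgb7. A match describes the letters only. It is not a binding site, and a missing match says nothing about a factor.

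Array medians ran from 5.07 to 5.30, and between 51.05% and 54.29% of an array's probe sets read 5 or more. Arrays of 1 group correlated with a median of 0.97, against 0.939 between groups. Native-0 replicate 5 (median correlation 0.95 with its own group) and Iso-25 replicate 5 (0.941) stood apart, so results that rest on them are also given without both. All 15 markers of tracheal epithelium, cartilage and smooth muscle passed the filter described next. Their mean level per array was 5.53 to 6.22 in Allo-25, against 9.58 to 10.52 in Iso-25 and 10.31 to 11.02 in Native-0. Skeletal muscle markers (10 genes) also varied, with mean levels per array of 6.98 to 11.72 in Native-0. They were 3.33 to 4.48 in Allo-14 against 4.49 to 8.49 in Iso-14, and 3.49 to 12.34 in Allo-25 against 5.835 to 9.56 in Iso-25. The part of tissue makeup in the member values was not tested.

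A probe set was tested when its value was 5 or more on 5 or more arrays. That held for 8 of the 14 member probe sets, of Icam1, Vcam1 (3 probe sets), Selp (1 of 2), Selplg, Itgb2 and Itgb7. Icam1, Itgb2, Itgb7 and 2 of the Vcam1 probe sets were at or above 5 in 35 arrays, Selplg in 34, Selp in 29 and the third Vcam1 probe set in 28. Sele, Itgal, the 3 Itga4 probe sets and the other Selp probe set reached 5 in 0 arrays, so 3 of the 9 genes had no tested probe set. Values under 5 are called near background here. That is the filter of this work, and background itself was not measured. In whole tissue, fewer cells of a type and less RNA per cell cannot be told apart.

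The comparison of allografts with isografts asks what an MHC-incompatible recipient adds to the effect of transplantation itself. Strains are not given, so MHC mismatch cannot be told apart from other strain differences between these grafts. Vcam1, Selplg, Itgb2 and Itgb7 rose in allografts at days 14 and 25, by 1.4-fold for Itgb7 and 1.9- to 3.5-fold for the others. Icam1 and Selp passed the test at no day, and no member gene passed it at day 4. So 4 of the 6 tested genes were called at day 14, where 18.4% of all 13678 tested probe sets were (10.0% higher), and 4 of 6 at day 25, where 14.9% were (6.38% higher). With only the arrays compared in the fit the day 25 count was 1 (Vcam1), and it was 2 (Vcam1 and Selplg) without Iso-25 replicate 4 or Allo-25 replicate 5. The shares of all probe sets called are from the fit on all 35 arrays. They were not counted in fits on fewer arrays, so whether calls fell there for all probe sets alike is not shown. At day 4 the count by limma was 0 of 6, against 0.600% of all probe sets, while 2 (Selplg and Itgb2) had an unadjusted p under 0.05 and 1 (Itgb2) was called with only the arrays compared in the fit. Every allograft array was above every isograft array for 2 of the 6 genes at day 4, as for 1.25% of all tested probe sets, for 5 at day 14 (7.57%) and for 1 at day 25 (3.87%). The median difference of the 6 tested genes was 0.49 at day 4, 0.88 at day 14 and 0.73 at day 25. Over the 9 genes, those near background included, it was 0.38, 0.52 and 0.34, and over all tested probe sets 0.01, 0.05 and 0.01 at the same days.

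**Figure D1:**
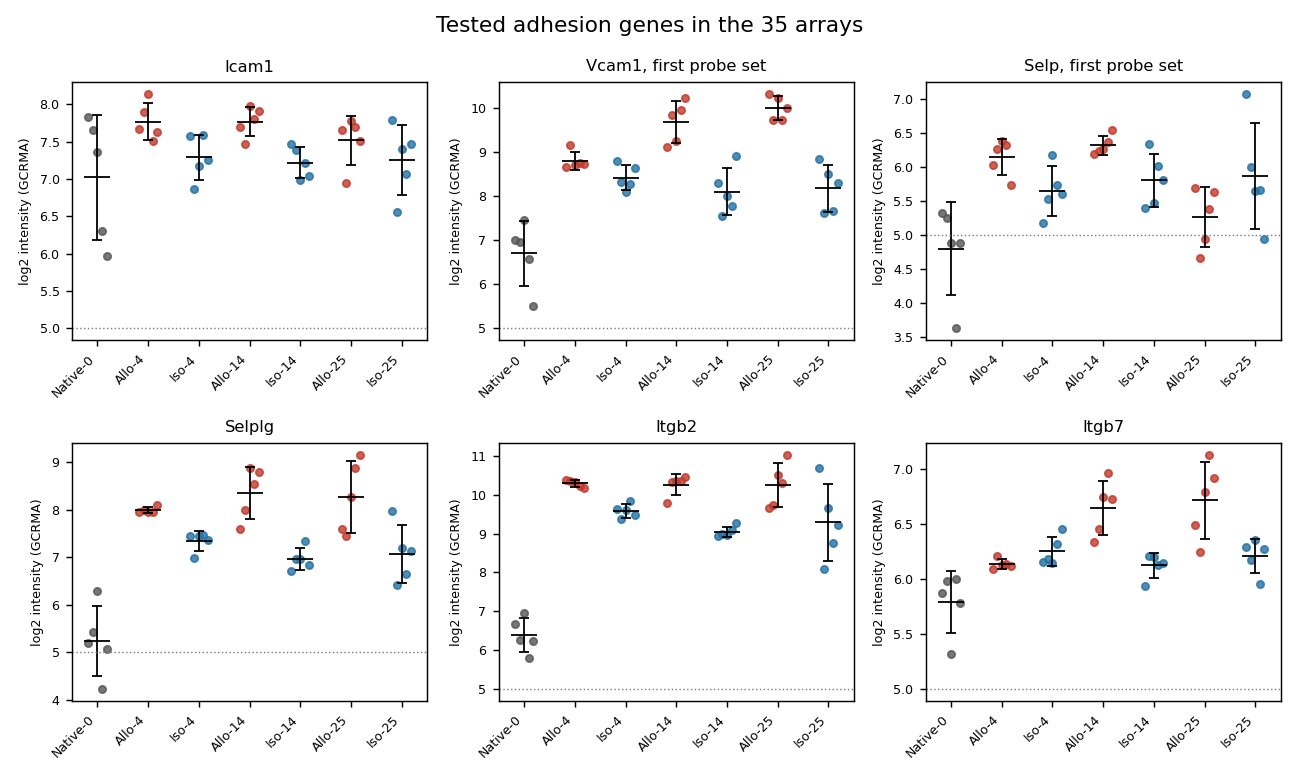
Log2 intensity (y axis) of the 6 tested adhesion genes in each of the 35 arrays, by group (x axis). Points are arrays, the horizontal mark is the group mean, the bar is the SD and the dotted line is the filter at 5. Vcam1 is highest in Allo-25 (mean 10.01) and lowest in Native-0 (6.70), and the Native-0 arrays of Itgb2 (5.80 to 6.95) lie below every graft array.

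Vcam1, the endothelial and stromal ligand of the Itga4-Itgb1 integrin, gave the largest allograft difference of the 6 tested genes at days 14 and 25. That ranking is for the probe set that stands for each gene. Its 3 probe sets are numbered here by their mean over all arrays. The first read 8.67, 9.15, 8.71, 8.75 and 8.73 in Allo-4 replicates 1 to 5, against 8.79, 8.32, 8.10, 8.28 and 8.64 in Iso-4. At day 14 it read 9.12, 9.85, 9.25, 9.96 and 10.23 in Allo-14, against 8.30, 7.56, 7.996, 7.77 and 8.91 in Iso-14. The ranges overlapped at day 4, while every Allo-14 array was above every Iso-14 array. At day 25 the values were 10.32, 9.73, 10.24, 9.73 and 10.01 in Allo-25, against 8.85, 7.61, 8.50, 7.66 and 8.30 in Iso-25 and 7.02, 6.95, 7.47, 6.58 and 5.51 in Native-0. Every Allo-25 array was above every Iso-25 array, and every graft array was above the 5 native ones.

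By limma over all probe sets, with Benjamini-Hochberg adjustment within each comparison, Vcam1 was higher in Allo-14 than in Iso-14 by 1.58 (SE 0.29, 2.98-fold, adjusted p = 0.000121, n = 5 per group). In Allo-25 it was higher than in Iso-25 by 1.82 (SE 0.29, 3.54-fold, adjusted p = 1.38e-05). The day 4 difference was 0.38 (95% interval -0.21 to 0.96, adjusted p = 1). Both calls held when any 1 array of the groups compared was left out. Without both arrays that stand apart the day 25 difference was 1.85 (adjusted p = 3.94e-06).

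The other Vcam1 probe sets gave other sizes. On the second, Vcam1 differed less than Selplg did at day 14 (1.40) and at day 25 (1.20). At day 25 the second was higher in allografts by 1.12 (SE 0.15, adjusted p = 1.12e-06) and the third by 2.14 (SE 0.44, adjusted p = 0.000544), again with no overlap between Allo-25 and Iso-25 arrays. At day 14 the difference was 0.67 for the second (SE 0.15, adjusted p = 0.00169), and 1.20 for the third (SE 0.44, adjusted p = 0.0536), which missed the threshold. That last value passed it without Iso-14 replicate 1 (1.33, adjusted p = 0.0454) or 5 (1.42, adjusted p = 0.0297), or Allo-14 replicate 4 (1.37, adjusted p = 0.0399) or 5 (1.41, adjusted p = 0.0329). At day 25 the third probe set read 8.07, 7.96, 8.53, 6.17 and 7.03 in Allo-25, against 5.53, 4.85, 6.04, 4.96 and 5.67 in Iso-25. The second read 7.21, 7.34, 7.51, 7.13 and 7.17 in Allo-25, against 6.03, 6.46, 6.19, 5.89 and 6.20 in Iso-25, the tightest of the 3 in Allo-25.

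**Figure D2:**
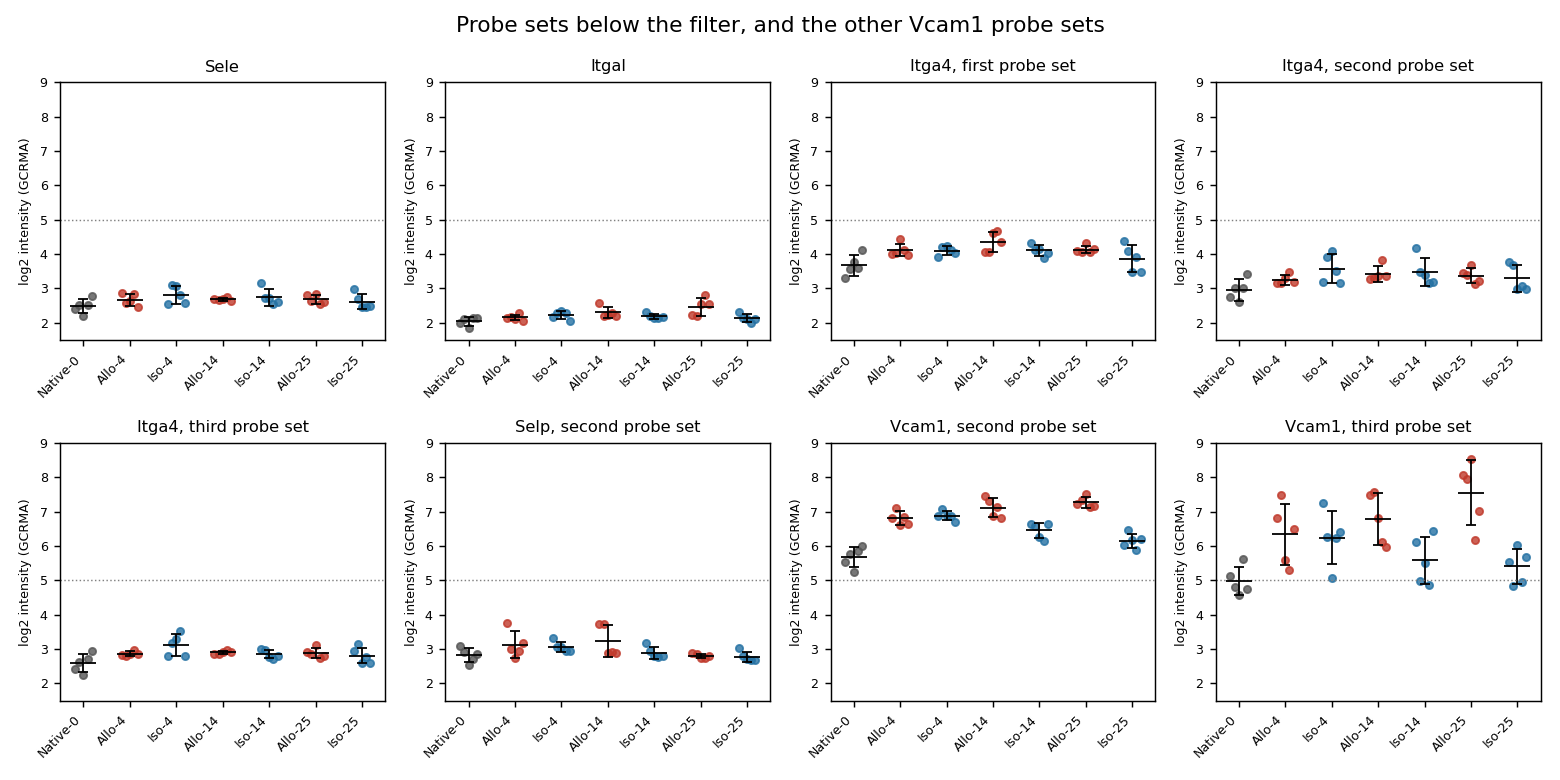
Log2 intensity (y axis) in each of the 35 arrays by group (x axis) for the 6 member probe sets below the filter and for the other 2 Vcam1 probe sets. Points are arrays, marks and bars the mean and SD, and the dotted line is the filter at 5. Sele stays between 2.19 and 3.17 and Itgal between 1.85 and 2.82, while both Vcam1 probe sets are highest in Allo-25 (mean 7.27 for the second and 7.55 for the third).

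Whether the allograft difference itself grew between day 4 and day 14 was tested as an interaction. None of the 6 genes was called by limma on its first or only probe set, and 2 (Vcam1 and Itgb7) had an unadjusted p under 0.05. The change for Vcam1 was 1.20 on the first probe set (SE 0.41, adjusted p = 0.0765) and 0.74 on the second (SE 0.22, adjusted p = 0.0324), the 1 member probe set called, where 6.38% of all tested probe sets were. The call of the second was lost without any 1 of Iso-4 replicate 2, Iso-14 replicates 3 or 4, Allo-4 replicates 3 or 5 or Allo-14 replicates 1, 2 or 4 (0.66 to 0.74, adjusted p 0.0508 to 0.0701), with array weights (0.59, adjusted p = 0.0614) and with reference gene centring (0.70, adjusted p = 0.085). The change on the first passed without Iso-14 replicate 5 (1.40, adjusted p = 0.0322) or Allo-14 replicate 1 (1.34, adjusted p = 0.0455), and without both arrays that stand apart (1.20, adjusted p = 0.0333). Within allografts, the first Vcam1 probe set was higher at day 25 than at day 4 by 1.20 (SE 0.29, adjusted p = 0.0029, with 18.9% of all probe sets called). Within isografts the first probe set did not pass between days 4 and 25 (log2 difference -0.24 at day 25, adjusted p = 0.593), nor did the third (-0.84, adjusted p = 0.179), while the second was lower at day 25 than at day 4 (-0.73, SE 0.15, adjusted p = 0.000701, with 22.2% of all probe sets called).

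Icam1, the ligand of the Itgal-Itgb2 and Itgam-Itgb2 integrins, was already above the filter at 5 in native trachea. It read 7.68, 7.90, 8.14, 7.51 and 7.63 in Allo-4, against 7.57, 6.86, 7.18, 7.59 and 7.26 in Iso-4. At day 14 the values were 7.69, 7.47, 7.97, 7.80 and 7.91 in Allo-14, against 7.46, 7.39, 6.99, 7.22 and 7.04 in Iso-14. At day 14 every allograft array was above every isograft array, the closest being 7.47 in Allo-14 and 7.46 in Iso-14. At day 25 it read 7.66, 6.95, 7.78, 7.70 and 7.50 in Allo-25, against 7.79, 6.56, 7.41, 7.07 and 7.47 in Iso-25 and 7.83, 7.66, 7.36, 6.30 and 5.96 in Native-0. Those ranges overlapped, and native replicates 4 and 5 were the 2 lowest of the 35 arrays.

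The allograft difference of Icam1 was 0.48 at day 4 (95% interval -0.06 to 1.01), 0.55 at day 14 (0.01 to 1.09) and 0.26 at day 25 (-0.28 to 0.80). None passed the adjusted threshold (adjusted p = 1, 0.163 and 0.614). With only the 10 arrays compared in the fit, the day 14 difference passed (adjusted p = 0.036).

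Selp, which encodes P-selectin, stored in endothelial cells and platelets, had its highest mean in Allo-14 (6.32) and its lowest in Native-0 (4.80). Its first probe set read 6.02, 6.26, 6.39, 6.32 and 5.73 in Allo-4, against 5.18, 5.53, 6.18, 5.73 and 5.60 in Iso-4. At day 14 the values were 6.19, 6.24, 6.26, 6.36 and 6.54 in Allo-14, against 5.39, 6.33, 5.46, 6.02 and 5.81 in Iso-14. Both pairs overlapped, and at day 14 Iso-14 replicate 2 alone lay among the Allo-14 arrays. At day 25 the order of the means was the other way, 5.68, 4.67, 4.95, 5.39 and 5.63 in Allo-25, against 7.07, 5.99, 5.65, 5.66 and 4.94 in Iso-25, and 5.33, 5.25, 4.89, 3.64 and 4.89 in Native-0. The allograft difference was 0.50 at day 4 (adjusted p = 1), 0.51 at day 14 (adjusted p = 0.261) and -0.60 at day 25 (95% interval -1.20 to 0.01, adjusted p = 0.207), so no day passed. Without both arrays that stand apart the day 25 difference was -0.83 (adjusted p = 0.0594).

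Within allografts Selp was lower in Allo-25 than in Allo-14, by 1.05 (log2 difference -1.05, SE 0.30, adjusted p = 0.0426), a comparison in which 3.08% of all probe sets were called. It was also lower in Allo-25 than in Allo-4 (-0.88, SE 0.30, adjusted p = 0.0351). The first call was lost without any 1 of Allo-14 replicates 1 to 5 or Allo-25 replicates 2, 3 or 4 (-1.08 to -0.90, adjusted p 0.057 to 0.143), without the filter (adjusted p = 0.0655) and with reference gene centring (adjusted p = 0.0653). The second was lost without any 1 of Allo-4 replicates 2, 3 or 4 or Allo-25 replicates 2, 3 or 4 (-0.91 to -0.73, adjusted p 0.0515 to 0.107), without the filter (adjusted p = 0.052) and with reference gene centring (-0.79, adjusted p = 0.0838). The change of the allograft difference between day 14 and day 25, the test that sets this fall against isografts, was -1.11 (SE 0.42, adjusted p = 0.315). There 0 of the 6 genes were called by limma and 1 (Selp) had an unadjusted p under 0.05, with 1.07% of all probe sets called.

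Sele, which encodes the cytokine-induced E-selectin of endothelium, stayed at 2.19 to 3.17 in the 35 arrays, and the second Selp probe set at 2.53 to 3.77. The Sele difference between allografts and isografts was -0.15 at day 4, -0.06 at day 14 and 0.07 at day 25, none called in a fit without the filter (adjusted p = 0.772, 0.947 and 0.925). Against Native-0 that fit called Sele in Iso-4 (0.33, adjusted p = 0.0376) and in no other group. These are differences among values near background.

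On the leukocyte side, Selplg carries the sugars that P-selectin and the other selectins bind. It read 7.96, 7.99, 7.95, 7.95 and 8.11 in Allo-4, against 7.46, 6.98, 7.46, 7.46 and 7.36 in Iso-4. At day 14 it read 7.60, 8.01, 8.87, 8.55 and 8.80 in Allo-14, against 6.71, 6.97, 6.96, 7.35 and 6.85 in Iso-14. In both pairs every allograft array was above every isograft array. At day 25 it read 7.60, 7.46, 8.27, 8.88 and 9.16 in Allo-25, against 7.98, 6.41, 7.21, 6.64 and 7.14 in Iso-25 and 5.20, 5.43, 6.28, 4.23 and 5.07 in Native-0, where Iso-25 replicate 1 lay above 2 Allo-25 arrays. Selplg was higher in allografts by 1.40 at day 14 (SE 0.32, 2.64-fold, adjusted p = 0.00147) and by 1.20 at day 25 (SE 0.32, 2.30-fold, adjusted p = 0.00685). Each of these calls held when any 1 array of the groups compared was left out. The day 25 call was lost with only the arrays compared in the fit (adjusted p = 0.0737). At day 4 the difference of 0.65 (95% interval 0.005 to 1.30) had an adjusted p of 0.926, although the arrays did not overlap.

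Itgb2, the beta chain shared by the leukocyte-specific integrins, was high in all 6 graft groups. It read 10.38, 10.34, 10.34, 10.23 and 10.18 in Allo-4, against 9.63, 9.38, 9.61, 9.85 and 9.47 in Iso-4. At day 14 the values were 9.78, 10.34, 10.35, 10.35 and 10.45 in Allo-14, against 8.94, 8.99, 8.98, 9.08 and 9.26 in Iso-14. Allografts lay above isografts in every array at both days. At day 25 it read 9.67, 9.73, 10.52, 10.29 and 11.03 in Allo-25, against 10.70, 8.08, 9.67, 8.75 and 9.23 in Iso-25 and 6.67, 6.26, 6.95, 5.80 and 6.23 in Native-0. The Iso-25 arrays, from replicate 2 to replicate 1, spread more widely than any other group (SD 0.98) and overlapped Allo-25.

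Itgb2 was higher in allografts by 1.20 at day 14 (SE 0.29, 2.30-fold, adjusted p = 0.0031) and by 0.96 at day 25 (SE 0.29, 1.95-fold, adjusted p = 0.0219). At day 4 the difference was 0.71 (SE 0.29, adjusted p = 0.739), and it passed with only the arrays compared in the fit (adjusted p = 0.0499). The day 14 call held when any 1 array of the groups compared was left out. The day 25 call was lost without Iso-25 replicate 2 (0.66, adjusted p = 0.12) or 4 (0.83, adjusted p = 0.0784), without Allo-25 replicate 3 (0.89, adjusted p = 0.0606) or 5 (0.77, adjusted p = 0.0935), and with only the arrays compared (adjusted p = 0.229).

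Itgb7, the beta chain that pairs with Itga4 on gut-homing lymphocytes and with Itgae on lymphocytes within epithelium, had the smallest differences of the 4 called genes. It read 6.09, 6.21, 6.12, 6.14 and 6.11 in Allo-4, against 6.15, 6.18, 6.15, 6.31 and 6.45 in Iso-4. At day 14 the values were 6.34, 6.45, 6.74, 6.96 and 6.73 in Allo-14, against 5.93, 6.21, 6.20, 6.13 and 6.15 in Iso-14. The groups overlapped at day 4 and did not at day 14. At day 25 it read 6.49, 6.25, 6.79, 7.13 and 6.92 in Allo-25, against 6.29, 6.17, 6.35, 5.96 and 6.27 in Iso-25 and 5.88, 5.98, 5.32, 6.001 and 5.78 in Native-0, and Allo-25 replicate 2 lay within the Iso-25 range. The allograft difference was -0.11 at day 4 (SE 0.15, adjusted p = 1), 0.52 at day 14 (SE 0.15, 1.43-fold, adjusted p = 0.0116) and 0.51 at day 25 (SE 0.15, 1.42-fold, adjusted p = 0.0161).

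The day 14 call of Itgb7 held without any 1 array of the groups compared. Its day 25 call was lost without Iso-25 replicate 4 (0.44, adjusted p = 0.0603), Allo-25 replicate 4 (0.40, adjusted p = 0.0723) or Allo-25 replicate 5 (0.45, adjusted p = 0.0529). The day 25 call was also lost with reference gene centring (0.44, adjusted p = 0.0776) and with only the arrays compared (adjusted p = 0.128). The growth of its allograft difference between days 4 and 14 was 0.63 (SE 0.21, adjusted p = 0.0674). That change passed without Allo-14 replicate 1 (0.71, adjusted p = 0.0375). Within allografts Itgb7 was higher at day 14 than at day 4 by 0.51 (adjusted p = 0.028, with 7.99% of all probe sets called) and at day 25 than at day 4 by 0.58 (adjusted p = 0.00536). The first of these was lost without any 1 of Allo-4 replicates 1, 3, 4 or 5 or Allo-14 replicates 3, 4 or 5 (0.43 to 0.51, adjusted p 0.0512 to 0.0959).

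The alpha chains stayed below the filter at 5 in all arrays. Itgal, the alpha chain of the Icam1-binding leukocyte integrin, stayed at 1.85 to 2.82. In the fit without the filter its Allo-25 minus Iso-25 difference was 0.34 (SE 0.10, adjusted p = 0.0261), with Allo-25 replicate 4 highest of the 35 arrays at 2.82, a change among values that are all near background. Itga4, the alpha chain that binds Vcam1 or Madcam1, read 3.31 to 4.66 on its first probe set, 2.60 to 4.17 on the second and 2.26 to 3.52 on the third, and none of its 9 differences between allografts and isografts was called without the filter. Against Native-0 that fit called the first probe set in 5 of the 6 comparisons, with 0.45 in Allo-4 (adjusted p = 0.0272), 0.68 in Allo-14 (adjusted p = 0.00101), 0.46 in Allo-25 (adjusted p = 0.0271), 0.43 in Iso-4 (adjusted p = 0.0273) and 0.44 in Iso-14 (adjusted p = 0.0372). It called the second in Iso-4 (0.61, adjusted p = 0.0163) and Iso-14 (0.52, adjusted p = 0.0491) and the third in Iso-4 (0.53, adjusted p = 0.00159). Itgal was called in Allo-14 (0.26, adjusted p = 0.0428) and Allo-25 (0.42, adjusted p = 0.00178). The levels behind these differences were all below 5.

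**Figure D3:**
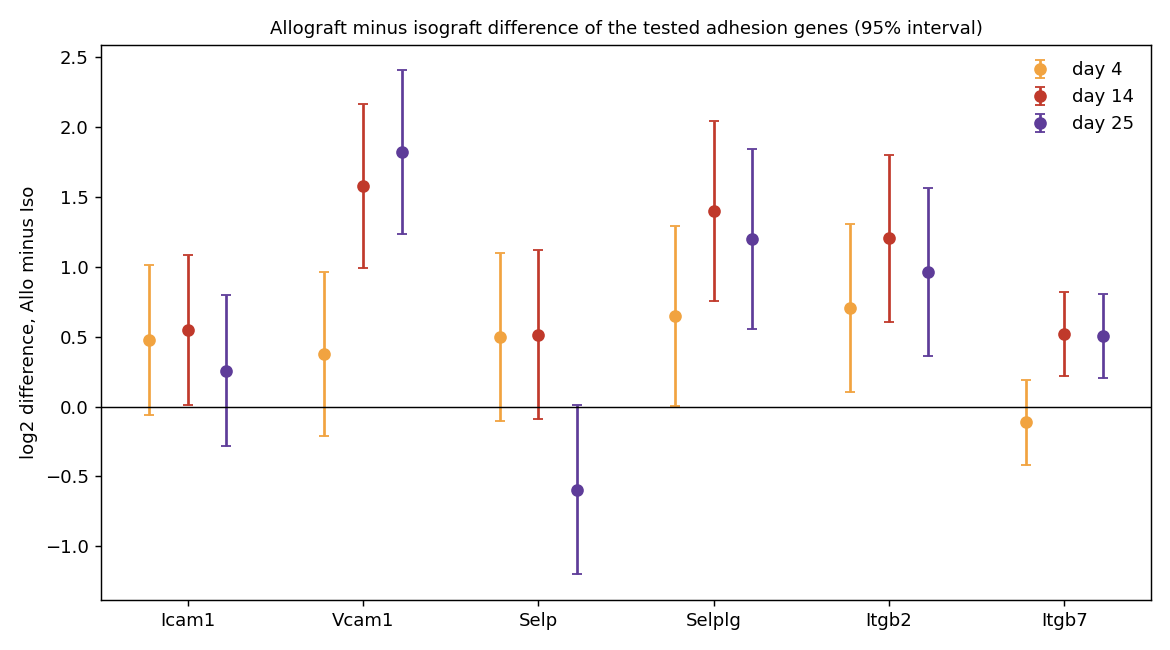
Allograft minus isograft log2 difference (y axis) of the 6 tested adhesion genes (x axis) at days 4, 14 and 25, from limma, with 95% intervals. The Vcam1 difference is 0.38 at day 4, 1.58 at day 14 and 1.82 at day 25, and that of Selp is 0.50, 0.51 and -0.60.

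The grafts were also set against native trachea. The 6 comparisons share the same 5 native arrays. All called members were higher in grafts. Of the 6 tested genes, 5 were called higher in Allo-4 (as were 22.2% of all tested probe sets), 6 in Allo-14 (21.7%) and 4 in Allo-25 (17.7%). In isografts 5 were called higher in Iso-4 (21.1%), 4 in Iso-14 (12.1%) and 4 in Iso-25 (8.98%). Vcam1 (first probe set), Selplg and Itgb2 were called in all 6 comparisons, and every graft array was above every native array for each of them. Graft and native arrays did not overlap, in either direction, for 28.2%, 27.3% and 20.5% of all tested probe sets in Allo-4, Allo-14 and Allo-25, and for 27.7%, 14.3% and 10.7% in Iso-4, Iso-14 and Iso-25.

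Itgb2 had the largest differences from native trachea, 3.91 in Allo-4 (15.05-fold), 3.87 in Allo-14 (14.65-fold) and 3.865 in Allo-25 (14.57-fold), each with SE 0.29. In isografts it was higher by 3.21 at day 4 (9.23-fold), 2.67 at day 14 and 2.90 at day 25. Selplg was higher by 2.75, 3.12 and 3.03 in allografts at days 4, 14 and 25, and by 2.10, 1.73 and 1.83 in isografts (SE 0.32). Vcam1 was higher by 2.10, 2.98 and 3.30 in allografts, 9.86-fold at day 25, and by 1.72, 1.40 and 1.48 in isografts (SE 0.29). For these 3 genes the adjusted p was 0.000721 or lower in each comparison. Without both arrays that stand apart the Vcam1 differences were 1.80, 2.68 and 3.00 in allografts and 1.42, 1.103 and 1.15 in isografts, all still called.

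The other Vcam1 probe sets shared the direction but not every call or separation. Native arrays overlapped Iso-25 on the second, and Iso-4, Iso-14, Iso-25 and Allo-4 on the third. The second was called in all 6 comparisons, with 1.13 to 1.59 in allografts and 0.47 to 1.20 in isografts. Its Iso-25 call (adjusted p = 0.0338) was lost without Native-0 replicate 1 or 3 or Iso-25 replicate 2, 3 or 5 (0.36 to 0.46, adjusted p 0.0553 to 0.113), with repeated quantile normalization (0.46, adjusted p = 0.0545) and with only the arrays compared (adjusted p = 0.132). The third was called in all 3 allograft groups (1.36 to 2.57) and in Iso-4 (1.26, adjusted p = 0.0203), but not in Iso-14 (0.60, adjusted p = 0.306) or Iso-25 (0.43, adjusted p = 0.535). The Iso-4 call was lost without Iso-4 replicate 1 (1.01, adjusted p = 0.072), and the Allo-4 call without Allo-4 replicate 2 (1.08, adjusted p = 0.0525).

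Selp was higher than in native trachea by 1.34 in Allo-4 (SE 0.30, adjusted p = 0.000464) and by 1.52 in Allo-14 (adjusted p = 0.000104), and the Allo-25 difference was 0.47 (adjusted p = 0.227). In isografts it was higher by 0.85 at day 4 (adjusted p = 0.0212), 1.00 at day 14 (adjusted p = 0.0126) and 1.06 at day 25 (adjusted p = 0.0141). Native-0 replicate 4, at 3.64, was far below the other 4 native arrays (4.89 to 5.33). Without it all 3 isograft calls were lost (0.55, 0.71 and 0.77, adjusted p = 0.111, 0.0593 and 0.0679). The Iso-4 call was also lost without Iso-4 replicate 3 (0.71, adjusted p = 0.0691), and the Iso-25 call without Iso-25 replicate 1 (0.76, adjusted p = 0.0688) and with only the arrays compared (adjusted p = 0.118).

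Icam1 was called against native trachea in Allo-4 (0.75, SE 0.26, adjusted p = 0.0214) and Allo-14 (0.75, adjusted p = 0.0211), and its difference was 0.50 in Allo-25 (adjusted p = 0.143) and 0.20 to 0.27 in the 3 isograft groups (adjusted p 0.422 to 0.594). These values turned on native replicates 4 and 5 (6.30 and 5.96), since the other 3 native arrays (7.36 to 7.83) lay among the allografts. Both calls were lost without Native-0 replicate 4 (0.57 in each, adjusted p = 0.0887 and 0.0865) or 5 (0.48 in each, adjusted p = 0.107 and 0.104), and with array weights (0.43 in each). The Allo-4 call was lost without Allo-4 replicate 3 too (0.66, adjusted p = 0.0612). The Allo-25 difference passed without Native-0 replicate 1 (0.70, adjusted p = 0.0445). Without both arrays that stand apart, the isograft differences were 0.01 at day 4, -0.07 at day 14 and -0.08 at day 25.

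Itgb7 was higher than in native trachea by 0.85 in Allo-14 (SE 0.15, adjusted p = 2.3e-05) and 0.92 in Allo-25 (adjusted p = 7.81e-06), and by 0.46 in Iso-4 (adjusted p = 0.0135). The Iso-4 call was lost without Native-0 replicate 3 (0.34, adjusted p = 0.066). Its differences of 0.34 in Allo-4 (adjusted p = 0.0596), 0.33 in Iso-14 (adjusted p = 0.0904) and 0.42 in Iso-25 (adjusted p = 0.0523) were close to the threshold. The Allo-4 value passed it without Native-0 replicate 2 (0.39, adjusted p = 0.0478) or 4 (0.39, adjusted p = 0.0438), and the Iso-25 value without Native-0 replicate 2 (0.46, adjusted p = 0.049) or 4 (0.47, adjusted p = 0.0484) or Iso-25 replicate 4 (0.48, adjusted p = 0.0393). Centring on scaling reference genes in place of the deposited scale moved the median of all probe sets by 0.129 in Iso-14, 0.146 in Iso-25 and 0.105 in Allo-14, each minus Native-0. With it the Itgb7 differences of Iso-14 (0.46, adjusted p = 0.0423) and Iso-25 (0.56, adjusted p = 0.0203) were called.

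In the order of the group means, Vcam1 ran from Native-0 (6.70) through Iso-14, Iso-25, Iso-4, Allo-4 and Allo-14 to Allo-25 (10.01), and of these 6 steps between neighbours only that between Native-0 and Iso-14 passed the test (1.40, adjusted p = 0.000721). Selplg and Itgb2 began with the same step, of 1.73 and 2.67, and no later step of either passed the test. The Selplg step between Allo-4 and Iso-4 (0.65, adjusted p = 0.926) was one between arrays that did not overlap, and the arrays of all other later neighbours overlapped. Their allograft groups held the top 3 places, led by Allo-14 for Selplg (8.37 ± 0.55) and by Allo-4 for Itgb2 (10.29 ± 0.08, SD, n = 5 each). No neighbouring groups passed the test for Icam1, Selp or Itgb7. Allo-25 was the second lowest group for Selp (5.26 ± 0.44) and the highest for Itgb7 (6.71 ± 0.35).

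Across the 35 arrays, Selplg and Itgb2 went together most closely of the members (Pearson correlation 0.949), followed by Vcam1 with Selplg (0.865) and with Itgb2 (0.852). Selp correlated with Itgb2 at 0.62 and with Itgb7 at 0.289. Of the other 8305 genes searched, the 3 most like Itgb2 were Tyrobp (0.981), the adaptor of activating myeloid and NK receptors, Slc15a3 (0.967) and Fcer1g (0.966), the signalling chain of Fc receptors. Those most like Selplg were Fermt3 (0.968), the leukocyte kindlin that activates integrins, and the kinase Syk (0.955), followed by Itgb2. Itgb7 was most like the chemokine receptor Cxcr3 (0.859), Cst7 (0.847), a cystatin of cytotoxic cells, and Traf1 (0.826). Vcam1 was most like the cytochrome Cyp1b1 (0.931), the receptor Gpr65 (0.922) and the kinase Stk17b (0.917). For Selp the closest were Nfkbia (0.803), the inhibitor of NF-kB, Rnf114 (0.761) and the NK receptor Cd244a (0.747), and for Icam1 Efhd2 (0.769), Rab32 (0.76) and Mob1a (0.734). These correlations describe arrays that share tissue makeup and the 7 groups, and carry no test.

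Other adhesion and integrin activation genes, epithelial ones among them, did not all move in the same direction. Of 12 tested integrin subunits outside the members, 2 were higher and 2 lower in Allo-14 than in Iso-14, and 2 higher and 3 lower in Allo-25 than in Iso-25. Their median difference was -0.03 at day 14 and 0.19 at day 25, and at day 4 limma called 0 of 12, with an unadjusted p under 0.05 for 1 higher and 1 lower. Itgam, the alpha chain that pairs with Itgb2 on myeloid cells, rose by 1.52 at day 14 (SE 0.41, adjusted p = 0.0075) and 1.25 at day 25 (adjusted p = 0.0355). Itgb1, the partner of Itga4 in binding Vcam1, rose by 1.06 at day 14 (SE 0.32, adjusted p = 0.0158), and its day 25 difference was 0.10 (adjusted p = 0.894). Itgb4, the beta chain of epithelial hemidesmosomes, fell by 1.43 at day 14 and by 2.34 at day 25 (SE 0.37), and the epithelial Itga3 fell by 1.38 at day 25. Itgae, the partner of Itgb7, differed by -0.07 at day 14 (adjusted p = 0.832) and rose by 0.63 at day 25 (SE 0.15, adjusted p = 0.00246).

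Itgax, a further Itgb2 partner and a marker of dendritic cells and airway macrophages, differed by 1.40 at day 4 (SE 0.38, adjusted p = 0.112), -0.44 at day 14 (adjusted p = 0.496) and 0.40 at day 25 (adjusted p = 0.581). Against native trachea it was higher by 4.87 in Allo-25 and by 4.48 in Iso-25.

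Of 12 tested genes on the selectin side, which make or carry selectin ligands, 2 were higher and 1 lower at day 14, and 1 higher and 1 lower at day 25. Cd44, a hyaluronan receptor that can also carry selectin ligands, rose by 1.07 at day 14 (SE 0.23, adjusted p = 0.000666) and 0.94 at day 25. Tpst2, an enzyme that adds sulfate to tyrosines as found on Selplg, rose by 0.57 at day 14 (adjusted p = 0.0324). Cd24a, a P-selectin ligand found on epithelium as well as leukocytes, fell by 2.69 at day 14 and by 3.28 at day 25 (SE 0.26). Fut7, Fut4, Gcnt1 and Chst4, enzymes that build these ligands, were below 5 in all arrays. The list's median difference was 0.04 at day 14 and 0.09 at day 25.

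Among 14 tested immunoglobulin-family and junctional genes, 3 fell at day 14 and 4 fell at day 25 by limma. None rose at an adjusted p under 0.05, and 1 was higher at day 14 and 0 at day 25 at an unadjusted p under 0.05. Alcam, an activated-leukocyte adhesion molecule also found on epithelium, fell by 1.83 and by 2.23 (SE 0.33), and L1cam by 0.81 and by 0.89 (SE 0.19). Jam2 fell by 0.48 at day 14 (SE 0.16, adjusted p = 0.032), and F11r, a tight-junction protein of epithelium and endothelium, fell at day 25 (log2 difference -1.365, SE 0.21). Icam2, the constitutive endothelial relative of Icam1, differed by 0.01, 0.52 and 0.23 at days 4, 14 and 25 (adjusted p = 1, 0.239 and 0.7). Madcam1, the addressin for Itga4 with Itgb7, was below 5 in all arrays. The list's median was 0.28 at day 14 and -0.24 at day 25.

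Genes that activate integrins and move the leukocyte cytoskeleton were mostly higher at day 14: 11 of 18 were higher and 1 lower at day 14, and 8 higher and 1 lower at day 25, with medians of 0.97 and 0.67. Fermt3 rose by 1.28 at day 14 (SE 0.32, adjusted p = 0.00433) and 1.15 at day 25 (adjusted p = 0.0117). Was, the actin regulator of blood cells, rose by 1.86 at day 14 (SE 0.46), Arhgdib by 1.84 at day 14 and 1.78 at day 25, and Dock2, an activator of Rac in leukocytes, by 1.94 at day 25 (SE 0.25). Ezr, which links membrane and actin in epithelium, fell at both days (log2 difference -2.105 at day 14 and -2.765 at day 25, SE 0.24).

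**Figure D4:**
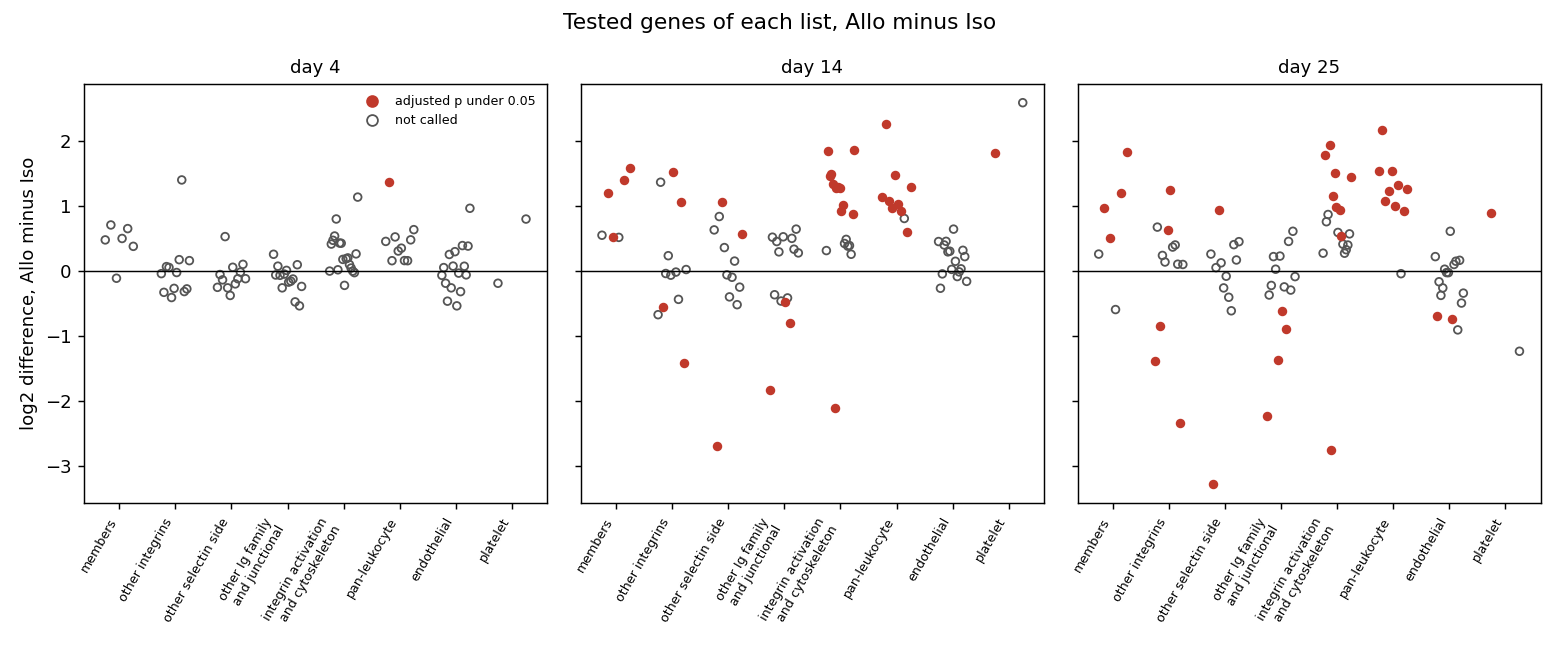
Allograft minus isograft log2 difference (y axis) of each tested gene of the members and of 7 other lists (x axis), at days 4, 14 and 25. Filled points have an adjusted p under 0.05. At day 14, 9 of 10 pan-leukocyte genes and 11 of 18 integrin activation genes are called higher, against 0 of 16 endothelial genes.

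Most pan-leukocyte markers were higher in allografts at days 14 and 25, as Selplg, Itgb2, Itgb7 and Vcam1 were, while markers of single leukocyte types varied. The part of leukocyte content in these results was not tested. Of 10 tested pan-leukocyte markers, 9 were higher in allografts at day 14 and 9 at day 25, and 1 (Cd52, by 1.37) at day 4. Ptprc, the common leukocyte antigen, rose by 1.29 at day 14 (SE 0.32, adjusted p = 0.00369) and by 1.26 at day 25 (adjusted p = 0.00493), and its day 4 difference was 0.63 (adjusted p = 0.955). The mean level of the 11 markers on the array was 8.21 to 8.56 in the Allo-4 arrays against 7.83 to 8.18 in Iso-4, 7.98 to 8.74 in Allo-14 against 7.10 to 7.68 in Iso-14, and 8.18 to 9.15 in Allo-25 against 7.16 to 8.39 in Iso-25. In Native-0 it was 5.55 to 6.43. Cd37 was below 5 in all arrays.

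By leukocyte type, 6 of 9 T cell markers were higher at day 14 and 5 at day 25 (Cd3d by 3.15 and 1.86), 6 of 6 NK and cytotoxic markers at both days (Gzmb by 4.51 and 3.32), and 7 of 13 macrophage markers at day 14 and 6 at day 25, when 2 were lower. Mean T cell marker levels were 4.27 to 4.62 in Allo-4 against 4.28 to 4.68 in Iso-4, and 5.23 to 6.16 in Allo-14 against 4.39 to 4.67 in Iso-14. B and plasma cell markers were higher in 1 of 5 at day 14 and 4 of 5 at day 25 (Ighm by 3.43 and 4.22). Among 8 tested neutrophil markers, 3 were higher at day 14, Mmp9 by 3.23 and Fpr2 by 2.59 among them. The 1 that was lower at day 14 was Ltf (-4.10), which airway glands also make. At day 25, 3 were lower, S100a9 by -3.20, S100a8 by -2.38 and Ltf by -9.97. Mean neutrophil levels, over a list that includes Ltf, were 5.05 to 6.51 in Allo-25 against 6.21 to 8.22 in Iso-25. The level without Ltf was not computed, so this mean does not show a fall of the list as a whole.

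Vessels themselves were read from 16 tested endothelial markers. By limma 0 were called at days 4 and 14 (median differences 0.01 and 0.18), with 1 higher at an unadjusted p under 0.05 at each of these days, and 2 were lower at day 25, Ramp2 by -0.74 (SE 0.24) and Cldn5 by -0.70 (SE 0.23). Pecam1 differed by -0.54, 0.64 and 0.61 (SE 0.67) and Cdh5, the endothelial cadherin, by -0.07, 0.45 and 0.22 (SE 0.38) at days 4, 14 and 25, none called. Mean endothelial level ran from 6.20 to 7.05 in Allo-25, against 6.58 to 6.87 in Iso-25. Of 9 stromal and fibroblast markers, 2 were higher at day 14 (Thy1, also a T cell marker, and Col1a1), and 1 higher and 1 lower at day 25. Stromal level was 11.60 to 11.90 in Allo-14 against 10.99 to 12.03 in Iso-14.

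Platelets hold P-selectin too, and 6 of the 8 platelet markers on the array, Itga2b and Gp9 among them, were below 5 in all arrays. Of the other 2, Pf4, a platelet chemokine also seen in macrophages, rose by 1.81 at day 14 (SE 0.27, adjusted p = 6.16e-06) and 0.88 at day 25 (adjusted p = 0.0216), and Ppbp passed the test at no day. The mean level of the 8 platelet markers was 4.48 in Allo-14 against 3.95 in Iso-14, and 3.77 in Allo-25 against 3.82 in Iso-25. The day 25 allograft difference of Selp was -0.60 and did not pass by limma (adjusted p = 0.207). Whether platelets had a part in the Selp values was not tested.

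**Figure D5:**
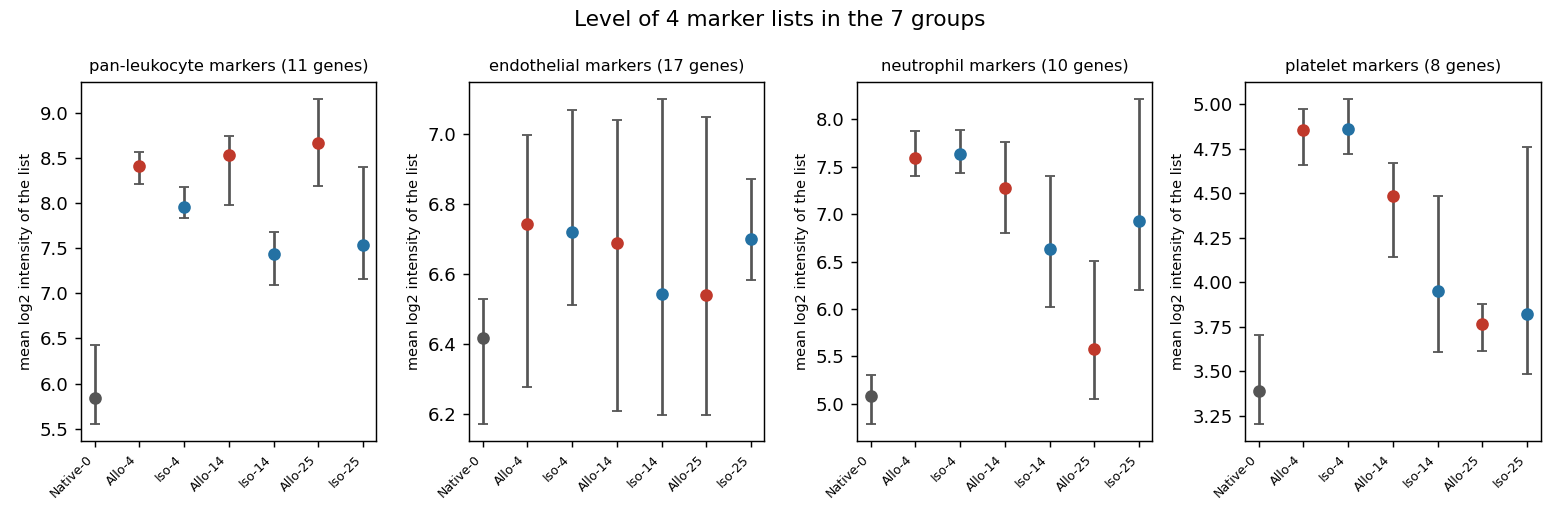
Mean log2 intensity (y axis) of the pan-leukocyte, endothelial, neutrophil and platelet marker lists in the 7 groups (x axis). Points are group means over 5 arrays and bars run from the lowest to the highest array. Pan-leukocyte markers are lowest in Native-0 (5.55 to 6.43), while group means of endothelial markers stay between 6.42 and 6.74.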

How the data were processed

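RNA from tracheal tissue of 35 samples was labelled and hybridised to 1 Affymetrix array each. The deposited values are log2 intensities per probe set, made by the authors with GCRMA 1.1.3, per the submitters' processing notes. Background correction, normalization across arrays and summary over probes belong to that step, and other settings are not given in the sources used here. GCRMA pulls values near background together, so differences between dim values are understated, and the number of arrays sets the precision. The platform annotation gave 1 gene for 20380 of 22626 probe sets, several for 691 and none for 1555 (64 control probe sets were left out), and no symbol had to be updated through RefSeq.

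Probe sets with a value of at least 5 in at least 5 arrays (13678) were fitted with limma 3.58.1 in R 4.3.3: 7 group means over all 35 arrays, eBayes, and Benjamini-Hochberg adjustment within each comparison, with calls at an adjusted p under 0.05. The fit was tested on simulated data. For a gene with several probe sets, the brightest over all arrays stands for it, and a member's other probe sets are given beside it. From each list of other adhesion and integrin activation genes, the text names up to 3 called genes with the largest difference per allograft comparison. From the lists of cell markers, only some of the genes that this rule picks are named. A few fixed genes are given too, with Cd37, Itga2b, Gp9, Fut7, Fut4, Gcnt1 and Chst4 as examples of dim ones. The members and lists were chosen with earlier results of these data known. The alternatives were other filters, array weights, a variance trend, other scalings, a replicate block, fits on the compared groups only, stricter thresholds, probe set means, and leaving out 1 array or both that stand apart. An array was left out singly only for the comparisons that use its group. The promoters of Vcam1, Selplg, Itgal and Itgb2 were not analysed here.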

Additional observations from a re-analysis of the deposited data

Results flagged for a closer look

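Among 98 groups of 5 arrays (14 probe sets in 7 groups), 7 held 1 array far from the other 4, a number to read against the 1 in 20 that chance gives. Selp was at 3.64 in Native-0 replicate 4, against 4.89 to 5.33 in the other native arrays, and Selplg at 6.98 in Iso-4 replicate 2 (others 7.36 to 7.46). Vcam1 (first probe set) was at 9.15 in Allo-4 replicate 2 (others 8.67 to 8.75), and Selplg at 8.11 in Allo-4 replicate 5 (others 7.95 to 7.99). In Allo-14, Itgb2 was at 9.78 in replicate 1 (others 10.34 to 10.45), Itgal at 2.59 in replicate 1 (others 2.20 to 2.29) and Itga4 (second probe set) at 3.82 in replicate 4 (others 3.27 to 3.37), the last 2 near background. The allograft difference of Vcam1 on its second probe set was larger at day 14 than at day 4 by 0.74 in the test of the change itself.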

How the results depend on the processing

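Under settings other than leaving out 1 array, 1003 values of single probe sets kept direction and side of the threshold, 65 lost the call, 21 gained it and 7 changed sign. With 1 array left out these were 890, 64, 13 and 13. The 65 include calls lost at an adjusted p under 0.01 or at a minimum of 2-fold. Those 2 settings reuse the main fit with a stricter threshold and are not a change of processing. The number of member genes called in Allo-25 minus Iso-25 was 4, and it was 1 with only the arrays compared, 2 at an adjusted p under 0.01 and 2 at a minimum of 2-fold, with 2 to 4 over the leave-one-out fits. In Iso-4 minus Native-0 it was 5, and 3 with the stricter filter (which tests fewer genes), at an adjusted p under 0.01 and at 2-fold. In Allo-4 minus Iso-4 it was 0, and 1 with only the arrays compared. For the change of the allograft difference between days 4 and 14 it was 0, and 2 with array weights, with only the arrays compared or with probe set means, 1 without both arrays that stand apart, and 0 to 2 over the leave-one-out fits. Icam1 changed sign against Native-0 with array weights (-0.0058 in Iso-4, -0.14 in Iso-14, -0.24 in Iso-25) and without both arrays that stand apart (-0.0657 in Iso-14, -0.08 in Iso-25), and it ran from -0.0657 to 0.40 in Iso-14 and from -0.0271 to 0.44 in Iso-25 over the leave-one-out fits. Vcam1 in Allo-4 minus Iso-4 turned to 0.0135 on the second probe set with array weights and ran from -0.195 to 0.359 on the third when 1 array was left out. The day 4 to day 14 change of Selp was -0.0278 with reference gene centring and ran from -0.12 to 0.15, and that of Icam1 from -0.0016 to 0.18, when 1 array was left out. The cause of these changes was not tested. Over all probe sets, calls were counted only in the main fit and with reference gene centring.

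Same-numbered arrays deviated together with a median correlation of 0.039 (-0.422 to 0.467, 105 pairs), against 0.007 for other numbers, and 7 of 35 arrays correlated best with their own number, so the numbers were not taken as pairs. The replicate block left the counts of member genes called as they were in the 9 comparisons of allografts with isografts or of grafts with Native-0 and in both tests of a changed allograft difference. It ended the Selp call in Allo-25 minus Allo-14 (adjusted p = 0.0601) and made that of the third Vcam1 probe set in Allo-14 minus Iso-14 (adjusted p = 0.0372), which the stricter filter (0.0462), repeated quantile normalization (0.0447) and reference gene centring (0.0487) made too. The 6 member probe sets below 5 in all arrays have no reading that passes the filter. Without the filter the count of member genes called against Native-0 was 7 in Iso-4 (5 in the main fit) and 8 in Allo-14 (6 in the main fit). The genes added, Sele and Itga4 in Iso-4 and Itgal and Itga4 in Allo-14, were below 5 in all arrays. The share of all probe sets called without the filter was not counted, so these counts have nothing to be read against.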
